A study of Mus musculus with 2 samples.

Results

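The 9 genes described here form 3 paralogous microRNA clusters, each with a miR-99 or miR-100 gene first, a let-7 gene next and a miR-125 gene last. They are Mir99a, Mirlet7c-1 and Mir125b-2 on chromosome 16, Mir99b, Mirlet7e and Mir125a on chromosome 17, and Mir100, Mirlet7a-2 and Mir125b-1 on chromosome 9. The rule that chose them reads only gene names in the GENCODE M21 annotation, and they are 9 of the 2202 microRNA (miRNA) genes counted. The 2 libraries were made from whole-tissue adrenal gland RNA of 5xFAD/CAST mice, all of them female adults between 8 and 10 months of age, and form 1 group, biological replicates 1 and 2, with no other condition. 5xFAD is a transgenic mouse line used as a model of Alzheimer's disease, with transgenes driven by the neuronal Thy1 promoter, and CAST is an inbred strain of castaneus origin. The labels do not say which animals carried the transgenes. The biosamples are separate but carry the same donor identifier. Their spread, the only one there is here, may therefore be technical.

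A miRNA is cut from a hairpin in a longer transcript, and bases 2 to 8 of the mature strand, the seed, pair with target messenger RNAs. Hairpins that lie close together on the same strand are often made as a single primary transcript, and the linkage of miR-100, let-7 and miR-125 is ancient in animals. let-7 and miR-125, the relative of worm lin-4, are known as timing miRNAs that rise as embryonic cells differentiate, and LIN28 proteins block the maturation of let-7. miR-99 and miR-100 are known repressors of mTOR and of the IGF receptor, also in adrenocortical tumor cells. In steroid-making cells miR-125a is known to repress SR-BI, the receptor that takes up cholesterol from lipoproteins, and to be lowered by corticotropin.

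The mature sequences show how the paralogs relate, and which reads can be told apart. All 9 genes were matched by symbol to RefSeq sequences on GRCm38.p6, with 17 mature arms. The arms from the 5′ side of the hairpins are given first, 5′ to 3′, with the seed in capitals; they share a seed within each family.
mmu-miR-99a-5p (Mir99a): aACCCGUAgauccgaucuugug
mmu-miR-99b-5p (Mir99b): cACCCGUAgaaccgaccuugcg
mmu-miR-100-5p (Mir100): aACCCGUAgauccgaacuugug
mmu-let-7c-5p (Mirlet7c-1): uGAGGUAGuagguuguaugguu
mmu-let-7e-5p (Mirlet7e): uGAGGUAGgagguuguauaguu
mmu-let-7a-5p (listed with Mirlet7a-1): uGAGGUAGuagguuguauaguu
mmu-miR-125a-5p (Mir125a): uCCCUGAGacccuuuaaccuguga
mmu-miR-125b-5p (Mir125b-1 and Mir125b-2): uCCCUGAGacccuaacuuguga

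Counting positions from 1 at the 5′ end, miR-99a and miR-100 differed at a single base, U16A. miR-99a and miR-99b differed at 4 of 22 bases, A1C, U11A, U16C and U21C, none of them in the seed. Between let-7c and let-7e the differences were U9G and G19A, and between let-7a and let-7e only U9G, just past the seed. miR-125a has 24 bases and miR-125b 22, and both begin with the same 13 bases. Of the 1738 mature arms in the sequence table, the seed ACCCGUA stood in 3 (0.173%), all of them members, GAGGUAG in 13 (0.748%) and CCCUGAG in 6 (0.345%). The relatives miR-10a and miR-10b carry the seed ACCCUGU, which differs from that of miR-99.

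For 4 of the 9 genes the mature 5p arm is not particular to the locus. The arm miR-125b-5p stands whole in both Mir125b-1 and Mir125b-2, let-7c-5p stands also in Mirlet7c-2 on chromosome 15, and let-7a-5p, listed with Mirlet7a-1 on chromosome 13, stands whole in the Mirlet7a-2 hairpin. The arms from the 3′ side of these 4 hairpins were found in no other miRNA gene; they are shown because they set the loci apart.
mmu-let-7c-1-3p: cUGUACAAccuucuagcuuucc
mmu-let-7a-2-3p: cUGUACAGccuccuagcuuuc
mmu-miR-125b-1-3p: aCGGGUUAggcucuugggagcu
mmu-miR-125b-2-3p: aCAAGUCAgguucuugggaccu

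The clusters differ in layout. On the mm10 build, Mir99b (chr17:17830188-17830257), Mirlet7e (chr17:17830352-17830444) and Mir125a (chr17:17830812-17830879) lie within 692 bases. Mir99b and Mirlet7e lie in introns of Spaca6, a gene of sperm and egg fusion, and Mir125a lies in an exon of 1 of the 3 Spaca6 transcripts that span it and in introns of the others. Mir99a (chr16:77598936-77599000) and Mirlet7c-1 (chr16:77599657-77599750) lie 656 bases apart, and 46.5 kb separate Mirlet7c-1 from Mir125b-2 (chr16:77646273-77646343). All of these chromosome 16 hairpins lie in introns of the noncoding gene Mir99ahg. Mir125b-2 also overlaps an exon of C130023A14Rik, and on the opposite strand Mir99a and Mirlet7c-1 lie in an intron of Gm11146. Mir100 (chr9:41531425-41531504), Mirlet7a-2 (chr9:41536716-41536811) and Mir125b-1 (chr9:41581926-41582002) span 50.6 kb in introns of the noncoding genes 3110039I08Rik and Gm49317. Mir125b-1 also overlaps an exon of Gm28119, and Mir100 lies opposite to an exon of Gm48742. All 9 genes are on the plus strand.

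Replicate 1 held 3635851 and replicate 2 held 6924829 reads on miRNA genes in the column that counts 1 strand, which is used throughout. Levels are CPM, the reads of a gene per 1000000 of these reads, with mean ± SD over the libraries. A miRNA read covers about a whole mature arm, so CPM was not divided by hairpin length; ligation bias still differs between sequences. Multimapping reads, which match several places in the genome, went to no gene. They made up 31.6% of the replicate 1 library and 33.6% of the replicate 2 library. The tissue label was checked against markers, though no list covers the adrenal cortex. All 4 endocrine and chromaffin cell miRNAs (the miR-7 genes and Mir375) were detected with 50709 and 48363 CPM in sum, of which Mir375 alone gave 46454 and 43996 CPM. The liver miRNA Mir122 stood at 78.1 and 108 CPM, and the 4 miRNAs of kidney and gut summed to 130 and 79.9 CPM. The 3 of exocrine pancreas summed to 1.10 and 1.30 CPM. The 8 striated muscle miRNAs summed to 7.70 and 6.07 CPM, all of it from Mir206, Mir208a, Mir208b and Mir499. The 4 at 0, the Mir1a and Mir133a genes, share 28 bases or more with another gene, and each of the 6 neuronal genes (Mir9 and Mir124a, 4 of them at 0) shares at least 26, so their levels cannot be read from uniquely assigned reads. Mir7-1 and Mir7-2 share 24 bases with another gene, and Mir194-1 and Mir194-2 share 22, so this limit may hold for them as well. The smooth muscle pair Mir143 and Mir145a summed to 23925 and 21489 CPM.

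The first comparison asked how much each cluster gives. The 9 genes together took 6.89% of the assigned reads in replicate 1 and 4.49% in replicate 2. The exact 95% intervals by the Clopper-Pearson method ran from 6.86 to 6.91% and from 4.48 to 4.51%. By uniquely assigned reads, the compact cluster on chromosome 17 led in both libraries with 4.16% and 2.83%, the chromosome 16 cluster held 2.42% and 1.44%, and the chromosome 9 cluster 0.303% and 0.219%. This order was the same in both libraries, and the ranges of the clusters did not overlap. It is an order of assigned reads only, since each of the clusters on chromosomes 16 and 9 has 2 genes whose 5p arm stands in another gene as well, and the chromosome 17 cluster has none. The means were 3.50% ± 0.938, 1.93% ± 0.696 and 0.261% ± 0.0595 (SD, n = 2). By family, miR-99 and miR-100 took 3.28% and 1.90%, the 3 let-7 genes 1.42% and 1.68%, and the miR-125 genes 2.20% and 0.906%, so that let-7 ranked last in replicate 1 and between the other families in replicate 2. This too is an order of assigned reads only. The let-7 and miR-125 families each have 2 genes whose 5p arm stands in another gene as well, and the miR-99 and miR-100 genes have none.

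**Figure D1:**
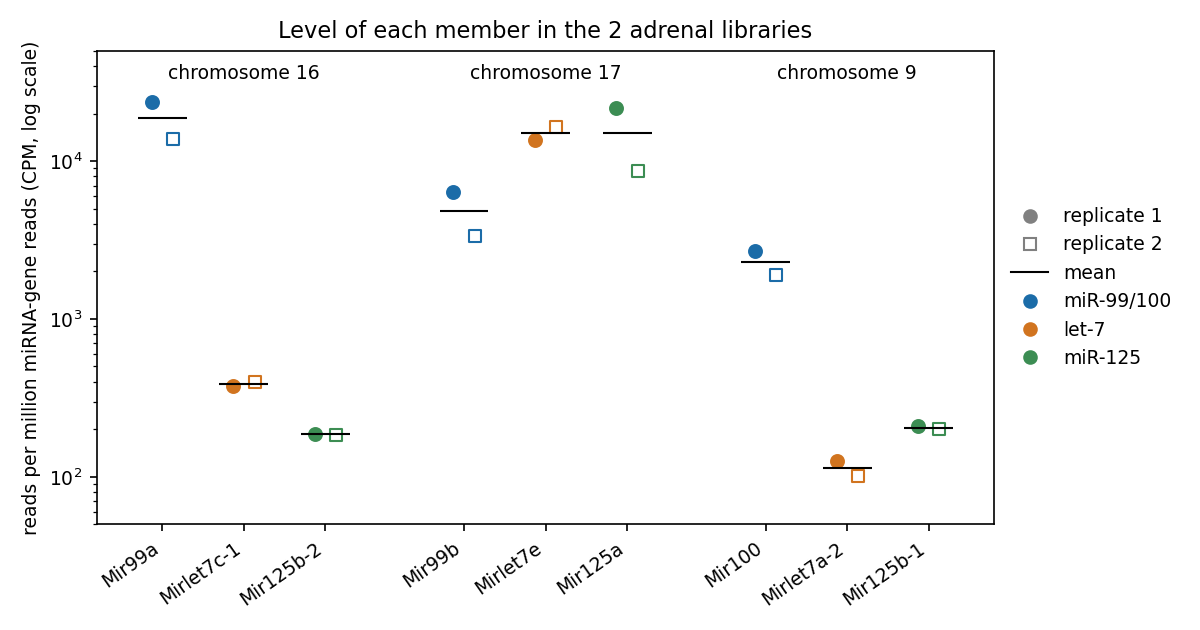
Level of each of the 9 genes in CPM (log axis), ordered by cluster and by position in the cluster; filled circles are replicate 1, open squares replicate 2, and bars the mean of both. The first gene of every cluster and the whole chromosome 17 cluster lie at 1887 CPM or more, and the other 4 genes at 398 CPM or less, in both libraries.

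Among the genes at the first position, Mir99a was counted with 86085 reads in replicate 1 and 95671 in replicate 2, or 23677 and 13816 CPM (mean 18746 ± 6973, SD, n = 2). It ranked 14 and 19 among all miRNA genes. Mir99b had 23229 and 23059 reads, or 6389 and 3329.9 CPM (4859 ± 2163). Mir100 had 9802 and 13067 reads, or 2696 and 1887 CPM (2291 ± 572). The order Mir99a, Mir99b, Mir100 held in both libraries without overlap of their CPM. Mir99a exceeded Mir99b by 3.71-fold in replicate 1 and 4.15-fold in replicate 2, and exceeded Mir100 by 8.78-fold and 7.32-fold. Mir99a held 72.3% and 72.6% of the reads of this family. Because miR-99a and miR-100 differ by a single base, a read with an error at that base can be counted for the wrong gene, and these counts are uncertain to that extent.

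At the second position, Mirlet7e was counted with 49632 and 113125 reads, or 13651 and 16336 CPM (14993 ± 1899, SD, n = 2). Mirlet7c-1 had 1362 and 2757 reads, or 375 and 398 CPM (386 ± 16.6), and Mirlet7a-2 had 460 and 701 reads, or 127 and 101 CPM (114 ± 17.9). Mirlet7e thus made up 96.5% and 97.0% of the let-7 reads of the clusters, and it is the let-7 gene here whose mature arm stands in no other non-overlapping gene. As let-7a and let-7e also differ by a single base, a let-7a read with an error at that base can be counted for Mirlet7e. Over 12 let-7 genes, with Mir98 counted among them and Mir7k (2 reads in each library) left out, the clusters gave 4.85% of the assigned let-7 reads in replicate 1 and 4.99% in replicate 2. Almost all of that was Mirlet7e, with 4.68% and 4.84%. The 9 of these outside the clusters held 27.8% and 32.0% of all assigned reads, led by Mirlet7b at 107083 ± 838 CPM and Mirlet7g at 98551 ± 18128 CPM.

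At the third position, Mir125a had 78409 and 60044 reads, or 21566 and 8671 CPM (15118 ± 9118, SD, n = 2). Its ranks were 16 and 24. Mir125b-1 had 760 and 1395 reads, or 209 and 201 CPM (205 ± 5.36). Mir125b-2 had 681 and 1278 reads, or 187 and 185 CPM (186 ± 1.94). The miR-125b genes, which carry the same 5p arm on different chromosomes, lay within 1.12-fold of each other in replicate 1 and 1.09-fold in replicate 2, while the assigned reads of Mir125a exceeded those of Mir125b-1 by 103-fold and 43.0-fold. Reads of the shared miR-125b-5p arm match both miR-125b genes and go uncounted where they cannot be placed, so these folds compare assigned reads and not miR-125a with miR-125b. Of the other genes with the miR-125 seed, Mir351 stood at 2272 and 1639 CPM, and Mir6367 and Mir6394 had no read. A count of 0, taken as up to 3 counts, allows 0.825 CPM in replicate 1 and 0.433 CPM in replicate 2 of uniquely assigned reads. These genes were looked up after the member values were seen.

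In order of mean level, Mir99a, Mir125a and Mirlet7e came first and overlapped, and their order was not the same in both libraries. Mir99a led in replicate 1 and Mirlet7e in replicate 2, and Mir125a fell behind Mirlet7e there. The following genes, Mir99b, Mir100, Mirlet7c-1, Mir125b-1, Mir125b-2 and Mirlet7a-2, were each lower than the gene before them in both libraries with no overlap. The step from Mir125b-1 to Mir125b-2, a log2 ratio of 0.14 ± 0.02 (SD, n = 2), was the smallest of these, and their 95% counting intervals overlapped in each library. With 2 libraries, a permutation test of any pair of genes cannot give a p below 0.333, so none was run. All intervals cover counting error only. Amplified reads that carry no molecular identifier may be copies of the same molecule, so the intervals, and the p of tests on counts, may be too small even for that.

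The genes nearest in level to the gene with the highest mean CPM in each cluster, by Euclidean distance of log2(CPM + 1) over the 2 libraries, were Mir127 for Mir99a (distance 0.18), Mir29a for Mir125a (0.55) and Mir328 for Mir100 (0.17). Mir127 stood at 23827 and 15607 CPM and Mir328 at 2789 and 2113 CPM. Mir29a, at 15047 and 9859 CPM, lay between the Mir125a values. All points share the same libraries and totals, and likeness over 2 libraries is a description only.

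The next comparison asked how reads divide within a cluster, whose genes may share a transcript. Mir99a made up 97.7% of the chromosome 16 cluster in replicate 1 and 96.0% in replicate 2. Its neighbor Mirlet7c-1, 656 bases away, held 1.55% and 2.77%, so Mir99a exceeded it by 63.2-fold and 34.7-fold. Mir125b-2 held 0.773% and 1.28%. On chromosome 9, Mir100 held 88.9% and 86.2%, Mirlet7a-2 4.17% and 4.62%, and Mir125b-1 6.90% and 9.20%. In both clusters the first gene held most of the reads, and the genes behind it are the 4 whose 5p arm stands in another gene as well.

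The chromosome 17 cluster, where no gene shares its mature arm with another, non-overlapping annotated miRNA gene, was divided more evenly. Mir99b held 15.4% in replicate 1 and 11.8% in replicate 2. Mirlet7e held 32.8% and 57.6%, and Mir125a 51.8% and 30.6%. Mir125a was the largest part in replicate 1 and Mirlet7e in replicate 2, so no order of these genes held in both libraries. Mir99b was the smallest part in both.

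**Figure D2:**
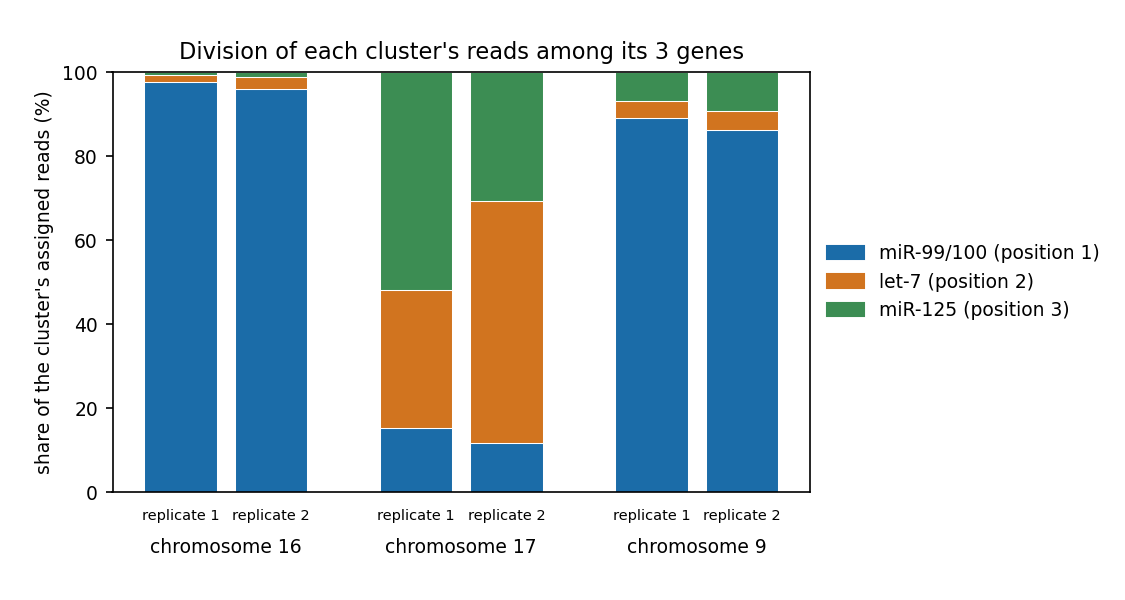
Share of each cluster's assigned reads (%) that fell on its first, middle and last gene, with 1 bar per library. The first gene takes 86.2 to 97.7% on chromosomes 16 and 9, against 11.8 to 15.4% on chromosome 17, where Mirlet7e and Mir125a change places between the libraries.

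Sequence shared with other loci was set beside the levels. The longest stretch that a hairpin shares with a non-overlapping miRNA gene, on either strand, was 23 bases for Mirlet7c-1 and Mirlet7a-2 and 24 bases for Mir125b-1 and Mir125b-2. It was 11 bases for Mir99b, 14 for Mir125a, 16 for Mir99a and Mir100 and 17 for Mirlet7e. The 4 genes with a shared stretch of at least 20 bases had mean levels of 114 to 386 CPM, and the 5 others 2291 to 18746 CPM, with no overlap. Over all genes, 80 of the 1087 with such a stretch (7.36%) were detected, against 276 of the 1115 without one (24.8%), where detected means at least 10 reads in each library. The median over these detected genes only was 87.1 CPM with and 101 CPM without such a stretch, and 13 and 63 of them had a mean of at least 1000 CPM. With at least 22 bases, the length of most mature arms and a limit chosen after the values were seen, 64 genes were detected. Of these, 4 reached a mean of 1000 CPM, the highest being Mirlet7f-2 at 3986 CPM. For the 4 members the counts hold only reads assigned to their own locus, so the levels of Mirlet7c-1, Mirlet7a-2, Mir125b-1 and Mir125b-2 are not the levels of let-7c, let-7a or miR-125b in the gland. How many multimapping reads belong to these miRNAs was not analysed here. The counts are per hairpin and do not say which arm was read.

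**Figure D3:**
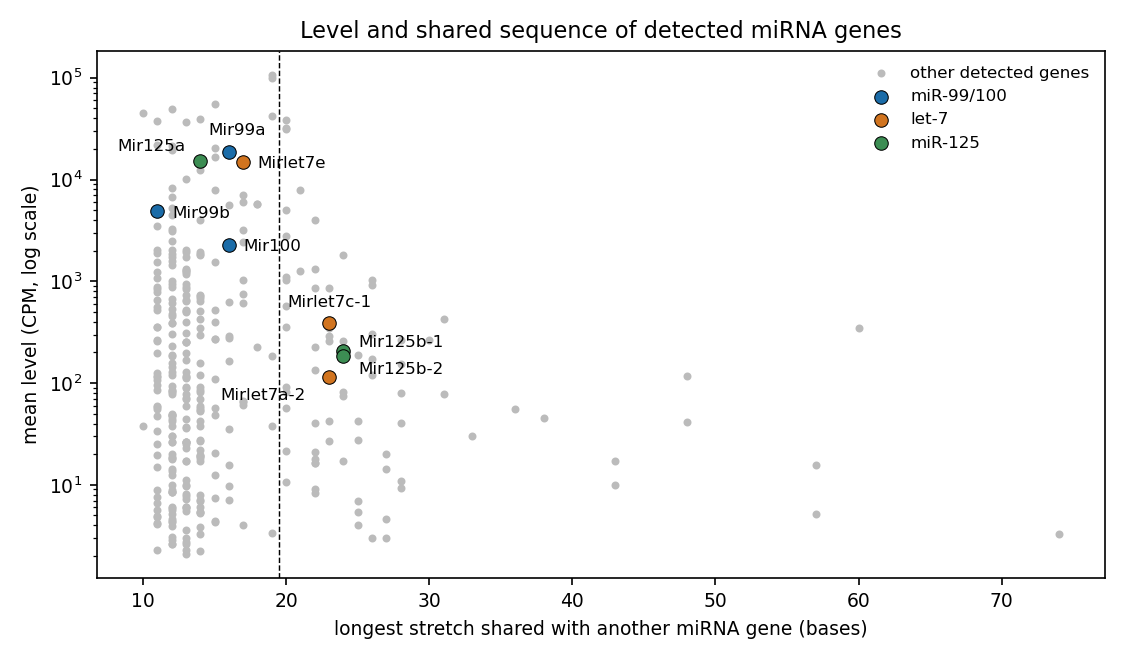
Mean level in CPM (log axis) of each detected miRNA gene against the longest stretch in bases that it shares with another, non-overlapping miRNA gene; the dashed line marks the limit of 20 bases. The 5 members left of the line lie at 2291 CPM or more and the 4 right of it at 386 CPM or less, whereas other genes spread widely on both sides.

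Mirlet7e depends on the count column. Its hairpin overlaps the annotated miRNA gene Gm25927 (chr17:17830343-17830459) on the opposite strand. In the column that counts both strands Mirlet7e had 0 reads in each library. In the column of the other strand Gm25927 had 49632 and 113125 reads, exactly the strand-column counts of Mirlet7e, and it had 0 in the strand column itself. These reads equal 10.4% of the ambiguous reads of replicate 1 and 14.0% of those of replicate 2. For the other 8 genes the strand column and the both-strand column held the same counts, and none of the 9 had a read on the other strand. Without Mirlet7e the chromosome 17 cluster would take 3.22% and 1.36% of the both-strand reads, below the chromosome 16 cluster with 1.63% in replicate 2.

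The last comparison asked which members differed between the libraries. The log2 ratio of replicate 2 to replicate 1 was -1.31 for Mir125a, -0.94 for Mir99b, -0.78 for Mir99a, -0.51 for Mir100 and -0.32 for Mirlet7a-2. It was -0.05 for Mir125b-1, -0.02 for Mir125b-2, 0.09 for Mirlet7c-1 and 0.26 for Mirlet7e. The genes of the miR-99 family were thus lower in replicate 2 at each locus, while Mirlet7e, between Mir99b and Mir125a, was higher. Of the 9 genes, 6 were called in a two-sided Fisher's exact test with Benjamini-Hochberg adjustment over 455 genes, where 52.5% of all tested genes were called. Of the members, 5 were called lower in replicate 2, against 35.6% of tested genes, and Mirlet7e was called higher, against 16.9%. That test weighs differences against counting error alone and says nothing of conditions.

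In that exact test the adjusted p was 0.000577 for Mirlet7a-2, 6.17e-153 for Mir100 and 6.24e-252 for Mirlet7e, and for Mir99a, Mir99b and Mir125a it was too small for the number format. Mirlet7c-1 (adjusted p = 0.112), Mir125b-1 (0.530) and Mir125b-2 (0.832) did not pass. A difference of at least 1.5-fold was seen for 3 members, Mir125a, Mir99b and Mir99a, where 40.9% of tested genes differed that much. The median log2 ratio was -0.32 over the members and -0.18 over all tested genes. For Mir125a, 9.45% of tested genes had a larger difference in either direction, and for Mir99b 17.8%. These backgrounds include genes with few reads. The median absolute log2 ratio was 0.47 over all tested genes and 0.32 over the members. It was 0.31 over the 168 genes with at least 100 CPM in each library, a level that every member reached.

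The scaling moves these directions. TMM factors shifted every log2 ratio by 0.20 and DESeq2 size factors by 0.18, which brought the median of all tested genes to 0.02 and 0.00. Calls with these factors came from a two-sided binomial test in place of Fisher's exact test. With TMM, 4 members were called lower (Mir125a, Mir99b, Mir99a and Mir100) and 4 higher (Mirlet7e, Mirlet7c-1 and both miR-125b genes). Over all genes 116 were lower and 124 higher, against 162 and 77 with plain totals. Mir99a, Mir99b, Mir100 and Mir125a were lower, and Mirlet7e higher, under all of these scalings. An alternative that also counts the spread between libraries is the exact test of edgeR. Its common dispersion, estimated from the same libraries, was a biological coefficient of variation of 31.2%, and 0 of the 9 members were called. Their adjusted p was 0.820 for Mir125a, with an unadjusted p of 0.0450, and 1 for the other 8. That test called 1.1% of the 455 genes, namely Mir26a-2, Mir185, Mir129-1, Mir129-2 and Mir153, and 26 had an unadjusted p under 0.05. That test has 1 library on each side and takes its dispersion from the tested difference itself, so a missing call does not show that a member was equal in both libraries.

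**Figure D4:**
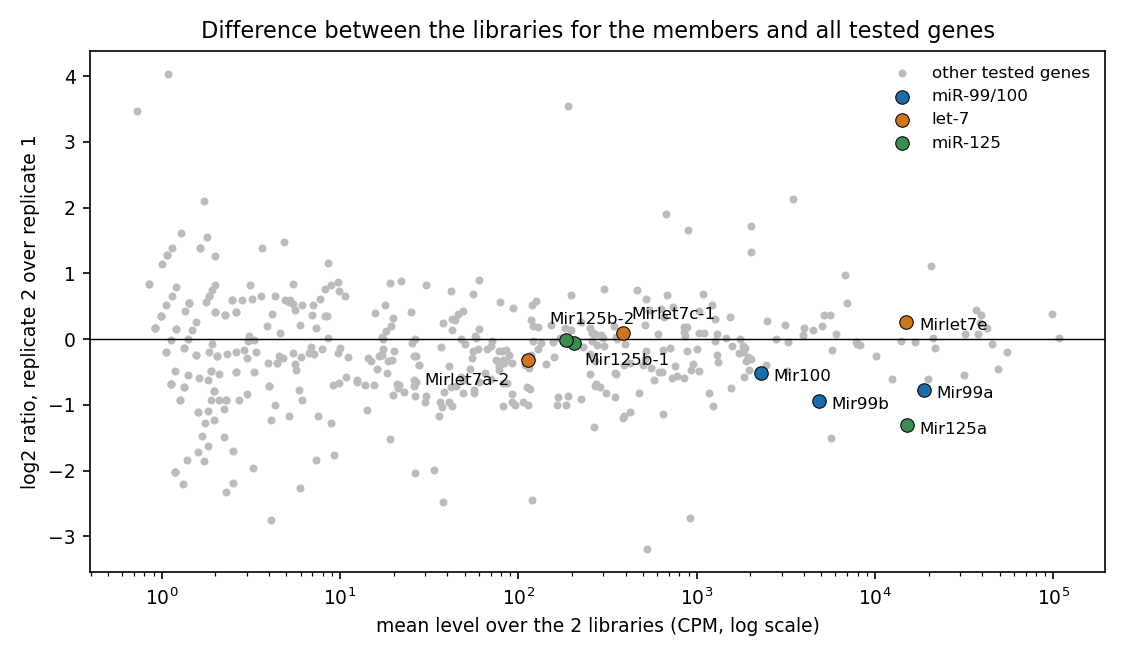
Log2 ratio of replicate 2 to replicate 1 (plain library totals) against the mean level in CPM (log axis) for the 455 tested genes, with the members colored by family. Mir125a, Mir99b, Mir99a and Mir100 lie below 0, Mirlet7e above it, and the miR-125b genes and Mirlet7c-1 within 0.09 of it; with TMM or DESeq2 scaling all points move up by 0.20 or 0.18.

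Markers of other cells also moved between the libraries. The endothelial miRNA Mir126a stood at 56684 CPM in replicate 1 and 41532 CPM in replicate 2, a log2 ratio of -0.45, and the red cell pair Mir451a and Mir144 summed to 427 and 175 CPM, a log2 ratio of -1.28. The endocrine list, led by Mir375, moved by -0.07 and the smooth muscle pair by -0.15. For the kidney and gut list the log2 ratio was -0.69, and for the liver miRNA Mir122 it was 0.47. The median absolute log2 ratio was 0.47 over all tested genes and 0.31 over the 168 with at least 100 CPM in each library. The difference of Mir126a lay between these medians. The part of these markers in the members' differences was not tested, and in whole tissue fewer cells of a type and less RNA per cell cannot be told apart. Of the relatives, the other 9 of these 12 let-7 genes were all called higher in replicate 2 by Fisher's exact test, where 16.9% of tested genes were. By edgeR's exact test 0 of them were called. Their log2 ratios ran from 0.02 for Mirlet7b to 0.76 for Mirlet7a-1, with a median of 0.26, close to Mirlet7e. Mir10a and Mir10b, relatives of miR-99 and miR-100, were called lower with -0.19 and -0.05, where 35.6% of tested genes were. With TMM factors both turned to above 0, with 0.006 for Mir10a and 0.15 for Mir10b. Their median was 0.08, and 1 of them, Mir10b, was called higher.

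Ratios between members need no scaling between libraries. All 18 ratios within clusters or within families were computed, and 17 had the same direction in both libraries, the exception being Mirlet7e to Mir125a. That ratio was 0.633 in replicate 1 and 1.88 in replicate 2, a change of 1.57 on the log2 scale between hairpins 367 bases apart. In a two-sided Fisher's exact test on the counts of each pair, adjusted by Benjamini-Hochberg over the 18, 16 ratios differed between the libraries by more than counting error, with changes of 0.16 to 1.57 on the log2 scale. The 18 ratios reuse the counts of 9 genes and are not independent. Pairs of other genes were not tested, and 52.5% of all tested genes were called singly, so this count is not particular to the members. The 2 that did not pass were Mirlet7c-1 to Mir125b-2, a change of 0.11 (adjusted p = 0.203, exact test), and Mir125b-2 to Mir125b-1, a change of 0.03 (adjusted p = 0.744, exact test). Mir99b to Mir125a changed by 0.37 and Mir99b to Mirlet7e by -1.20. Within the miR-99 family the changes were 0.16 for Mir99a to Mir99b, -0.26 for Mir99a to Mir100 and -0.43 for Mir99b to Mir100. The spread of such ratios over animals cannot be judged from 2 libraries.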

How the data were processed

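Small RNA of mouse adrenal gland was measured in 2 libraries. The authors deposited raw counts per miRNA gene for each library in 3 unnamed columns, on assembly mm10 with GENCODE M21 per the deposited notes; for the aligner, counting program and strand setting, names were not given in the sources used here. From the column sums, the first was read as both strands, the second as 1 strand (used here) and the third as the other. The 4 rows that name no gene stayed out of totals. All 2202 identifiers matched GENCODE M21.

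Genes with at least 10 reads in both libraries together were tested by Fisher's exact test with Benjamini-Hochberg adjustment at 0.05. Log2 ratios used an offset of 0.5 counts. edgeR's quasi-likelihood test could not be fitted to the difference of 1 library from 1 other, which leaves no residual degrees of freedom; edgeR's exact test took its common dispersion from an intercept-only fit to 356 genes. Shares have exact 95% intervals. Fisher's and edgeR's exact tests were also run on simulated libraries. Their changed genes were drawn only below 1000 CPM, so changes at the level of the higher members were not simulated. The both-strand column, TMM and DESeq2 scaling (both with a binomial test), no filter, another total and leaving out each library were tried. Members and lists were chosen with earlier results of these data known. Genes named are the members, genes overlapping or sharing mature sequence with them, the other let-7 and miR-10 genes, and the gene nearest in level to the member with the highest mean CPM of each cluster. Marker genes are named from lists of cell types, and genes with a shared seed and the 5 genes called by edgeR's exact test after their values were seen. Shared stretches and mature arms were searched in GENCODE M21 miRNA hairpins, and matches elsewhere in the genome were not searched. Sequence searches and figures used Python 3.11.15 with matplotlib 3.10.9, the tests scipy 1.17.1 on tables held in pandas 2.3.3 and numpy 2.4.6, and the scaling factors DESeq2 1.42.0 and edgeR 4.0.16 under R 4.3.3.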

Additional observations from a re-analysis of the deposited data

How the results depend on the processing

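In the both-strand column, which lacks Mirlet7e, the chromosome 17 cluster took 2.29% and the let-7 genes of the clusters 0.0571% of reads, and the other cluster and family shares moved by less than 1 SD. With all reads of the library as the total, the clusters on chromosomes 16, 17 and 9 took 0.891%, 1.61% and 0.120%, and the miR-99/100 and let-7 families 1.19% and 0.710%. edgeR's exact test called 5 genes in place of 239 and 0 members in place of 6. Mir125b-2 turned from -0.02 to 0.18 with TMM factors and 0.15 with DESeq2 size factors, called both times. Mir125b-1 turned to 0.15 with TMM factors, where it was called, and to 0.12 with DESeq2 size factors, where it was not. Mirlet7a-2 lost its call and Mirlet7c-1 gained one under both scalings, each of which moves every ratio by the same amount and was used with a binomial test. Beyond that, the cause was not tested. The log2 ratio of Mirlet7e to Mir125a, 0.13 on average, was -0.66 and 0.91 in single libraries, and the 17 other ratios kept their direction without either library. In the both-strand column 4 ratios with Mirlet7e had no value, and 12 of the other 14 changed between the libraries. Without a filter on low counts 231 of 759 tested genes and 6 members were called, against 239 of 455 genes with it. For the members this alternative was chosen after seeing the data. The comparison of libraries could not be repeated with a library left out. No paired analysis was possible because the study has 1 group. Each member had at least 460 reads in a library, but the calls of Fisher's exact test depend on the number of reads. At a log2 ratio of -0.05, Mir10b with 61978 and 113832 reads was called. Mir125b-1, with 760 and 1395 reads and also at -0.05, was not.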
